A study of Mus musculus with 8 samples.

Results

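Interferon response and antigen processing genes are a group of 39 genes that are switched on by interferons, carry the interferon signal, or prepare peptides for display by class I major histocompatibility molecules. They were taken by name from the array's annotation, using for each gene the probe set that carries a single symbol and has the highest mean over all 8 arrays. Of the 39 genes, 37 were measured in this way, among 22180 genes in all. Gbp2 and Ifi44 were not analysed here, because no probe set carries either symbol alone.

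Transcripts were measured on 8 arrays, 2 in each of 4 groups, in primary hepatic stellate cells of BALB/c mice, liver pericytes that store vitamin A and turn into myofibroblasts after injury. Quiescent cells came straight from healthy livers (0 hours) and were not seeded. Cultured cells were quiescent cells kept for 10 days on plastic, a widely used model of activation outside the body. The remaining cells were taken, also without seeding, from mice made fibrotic with carbon tetrachloride (CCl4), a liver toxin, for 2 or 4 weeks. A protocol given for all 8 samples names valproic acid, a histone deacetylase inhibitor, at 2.5 mM after seeding, whereas 3 of the 4 groups were never seeded and no sample's treatment label names it. The sources used here leave unsettled whether the cells in culture were given it, so culture and any such treatment cannot be told apart. Nothing in the labels tells whether replicate arrays stem from different animals or cultures, so the p-values cover the spread of these samples alone, and that spread may be technical.

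Interferons are secreted proteins that warn cells of infection. Type I interferons bind a receptor made of Ifnar1 and Ifnar2 and interferon gamma binds Ifngr1 and Ifngr2; the kinases behind these receptors activate STAT proteins, which with Irf9 or as dimers switch on a large set of genes. The induced genes sense viral RNA, block viral replication, and exchange the proteasome's catalytic subunits for immunoproteasome subunits, whose peptides are pumped by Tap1 and Tap2 into the endoplasmic reticulum and loaded on class I molecules. Stellate cells are known to respond to interferons, and interferon gamma is known to restrain their activation.

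Levels are log2 values normalised by robust multi-array average (RMA), so a difference of 1 is a 2-fold change, and levels of different genes are not compared. Changes are log2 differences between group means ± standard error (SE) from limma, with p-values adjusted by the Benjamini-Hochberg method over all 22180 genes, and a gene is said to have risen or fallen where the adjusted p was under 0.05. A level of 4.69 served as the guide to background; it is the 95th percentile of 1394 odorant and pheromone receptor genes, whose median was 3.23. In quiescent cells only Mx1 of the 37 members stood under 4.69 on both arrays. The culture arrays had 3 such members (Dhx58, Mx1 and Nlrc5), and each CCl4 time had 2 (Mx1 and Nlrc5). Of 7 activated stellate markers, 5 rose in culture and 7 at each CCl4 time (4 without either 2-week array or 4-week replicate 1). The 12 general stellate cell markers moved too. In culture 9 of them fell and 1 rose, with a median log2 change of -1.65; Rgs5, a pericyte marker, fell by 5.70 ± 0.14 (adjusted p = 1.01e-07), and Nes (nestin) rose by 3.44 ± 0.54 (adjusted p = 0.00173). Colec11 was under the guide on both cultured arrays. The sum of the 12 levels, taken on the linear scale and given as log2, was 14.88 and 14.95 in quiescent cells, 13.35 and 13.28 in culture, 14.41 and 14.49 at 2 weeks and 14.54 and 14.56 at 4 weeks. After CCl4, 4 fell and 1 rose at 2 weeks (0 fell without 2-week replicate 1, and 2 without quiescent replicate 1, 2-week replicate 2 or either 4-week array), and 6 fell and 2 rose at 4 weeks (1 fell without either 4-week array). The part of these shifts in the results on the members was not tested.

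The start regions of a few members show the letters through which interferon-activated factors are known to act. The interferon-stimulated response element (ISRE) was searched as its core (GAAA, then any 2 bases, then GAAA) and the gamma-activated sequence (GAS) as its core TTCNNNGAA, on both strands, in RefSeq windows of build GRCm38.p6 from 250 bases before to 50 after each start; matches may overlap one another. The 250 bases before the start are printed below for 5 genes, with every ISRE or GAS core in capitals. Isg15 (chr4:156200819-156201068, minus strand) is shown for its 3 overlapping ISRE cores, and Bst2 (chr8:71537473-71537722, minus strand) for 2 ISRE cores that overlap each other and a GAS core. Gbp7 (chr3:142530086-142530335, plus strand) holds 1 ISRE core and 2 GAS cores, and Irf1 (chr11:53769764-53770013, plus strand) holds 1 GAS core. Irf7 (chr7:141266425-141266674, minus strand) is shown because it moved in opposite directions in culture and after CCl4, and it holds neither core in this window.
Isg15: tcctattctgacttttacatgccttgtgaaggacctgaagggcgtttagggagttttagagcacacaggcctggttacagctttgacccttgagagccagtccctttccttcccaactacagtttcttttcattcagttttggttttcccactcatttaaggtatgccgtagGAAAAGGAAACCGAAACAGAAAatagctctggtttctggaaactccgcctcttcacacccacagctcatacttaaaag
Bst2: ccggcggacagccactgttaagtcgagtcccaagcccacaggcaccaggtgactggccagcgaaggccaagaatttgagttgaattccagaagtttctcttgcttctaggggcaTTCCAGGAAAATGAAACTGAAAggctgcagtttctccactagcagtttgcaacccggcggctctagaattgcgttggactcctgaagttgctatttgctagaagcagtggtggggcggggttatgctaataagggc
Gbp7: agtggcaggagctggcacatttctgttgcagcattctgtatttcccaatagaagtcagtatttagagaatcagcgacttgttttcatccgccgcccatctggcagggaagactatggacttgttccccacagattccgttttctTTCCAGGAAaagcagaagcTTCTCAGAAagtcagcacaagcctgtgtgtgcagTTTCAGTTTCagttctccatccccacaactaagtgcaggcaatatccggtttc
Irf1: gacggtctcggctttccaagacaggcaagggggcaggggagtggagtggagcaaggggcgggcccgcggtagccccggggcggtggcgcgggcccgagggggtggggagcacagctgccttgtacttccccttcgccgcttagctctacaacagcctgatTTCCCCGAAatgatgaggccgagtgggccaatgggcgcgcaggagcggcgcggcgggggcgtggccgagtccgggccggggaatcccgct
Irf7: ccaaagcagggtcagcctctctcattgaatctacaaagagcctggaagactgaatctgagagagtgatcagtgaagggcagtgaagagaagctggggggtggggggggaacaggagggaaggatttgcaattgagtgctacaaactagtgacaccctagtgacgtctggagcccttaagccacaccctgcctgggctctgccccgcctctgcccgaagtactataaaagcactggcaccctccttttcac
Psmb9 and Tap1 lie head to head, and the 225 bases between their starts (chr17:34187331-34187555, printed on the plus strand, that of Tap1) are shown because both genes fell in culture; they hold neither core.
Psmb9-Tap1: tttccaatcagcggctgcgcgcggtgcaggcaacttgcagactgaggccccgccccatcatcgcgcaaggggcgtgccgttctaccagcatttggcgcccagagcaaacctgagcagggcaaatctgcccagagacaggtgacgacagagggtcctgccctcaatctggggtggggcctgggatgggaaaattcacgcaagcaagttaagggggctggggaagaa

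A promoter window was matched for 29 of the 39 members. An ISRE core stood in 14 of the 29 (48.3%), against 1079 of 27025 genes with a window (3.99%), and a GAS core in 6 of the 29 (20.7%), against 2582 genes (9.55%). These are counts of letters, with no test. The 10 members without a window here were Usp18, Nlrc5, Parp14, Oas2, Mx1, Tap2, Parp9, Rtp4, Mx2 and Dhx58. Members with and without the letters fell in culture: of 13 measured members with an ISRE core 7 fell, with a median log2 change of -0.85, and of 14 without one 11 fell, with a median of -1.03.

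**Figure D1:**
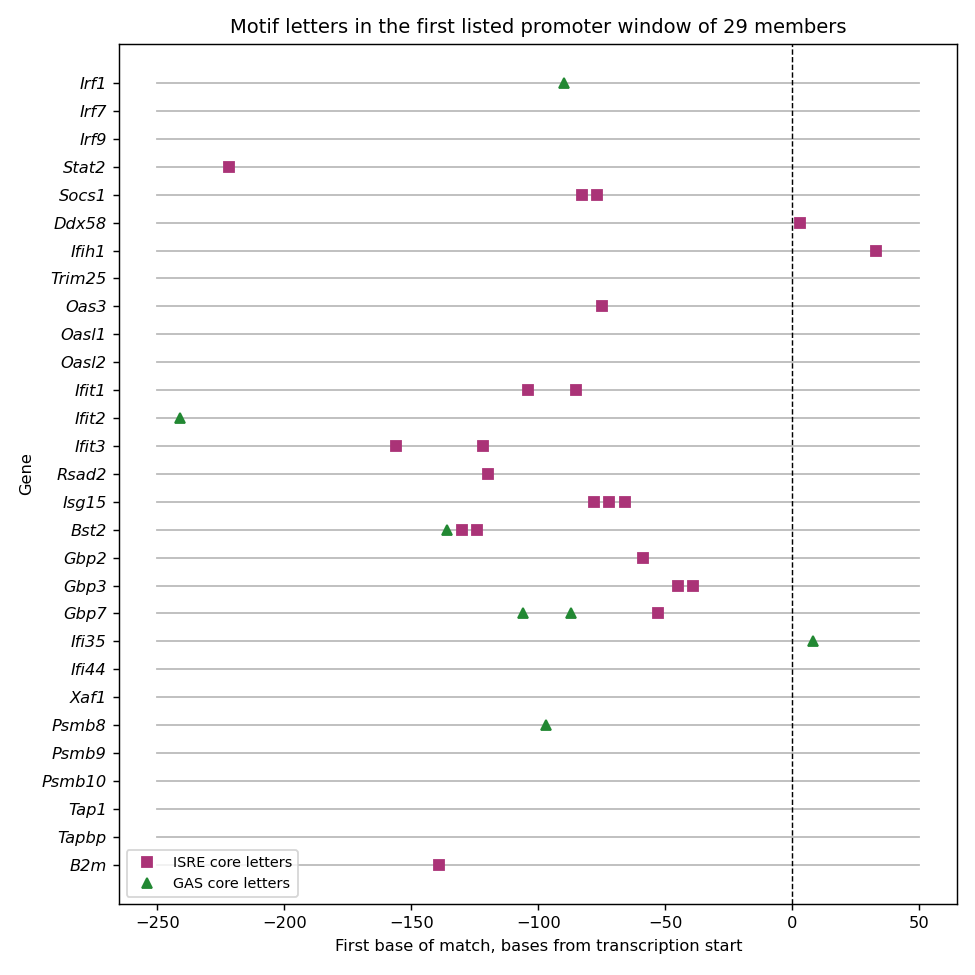
Positions of ISRE cores (squares) and GAS cores (triangles) in the first listed RefSeq window of 29 members, in bases from the transcription start (dashed line); each horizontal line is a window from 250 bases before to 50 after the start. ISRE cores stand in 14 windows and GAS cores in 6, and Isg15 alone holds 3 ISRE cores.

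After 10 days on plastic most of these genes had fallen. Of 37 members, 25 fell and 0 rose against quiescent cells (0 also at an unadjusted limma p under 0.05), where 10.3% of all genes fell and 12.9% rose. All genes include many under the background guide, with little room to fall. The 10.3%, like the shares of all genes given below, is thus not a share among genes as bright as the members. The median log2 change of the members was -1.0, against 0.01 over all genes, and every member's change was below 0, from -3.18 for Irf1 to -0.11 for Mx1. Both cultured arrays lay below both quiescent arrays for 33 members, a pattern seen in 27% of all genes; the exceptions were Ddx58, Oasl1, Mx1 and Rsad2. Whether fewer cells of a type or less RNA per cell lowered a level cannot be told apart in these bulk samples. Of the 25 calls, 18 held when any single array was left out and 15 also under every other alternative, a 2-fold minimum included. The 7 that were lost were Irf9 and Usp18 (without quiescent replicate 1 or culture replicate 2), Socs1 (without quiescent or culture replicate 1), Ifit3 (without quiescent replicate 2 or culture replicate 1), Gbp3 and Xaf1 (without quiescent or culture replicate 2) and Tapbp (without culture replicate 2).

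**Figure D2:**
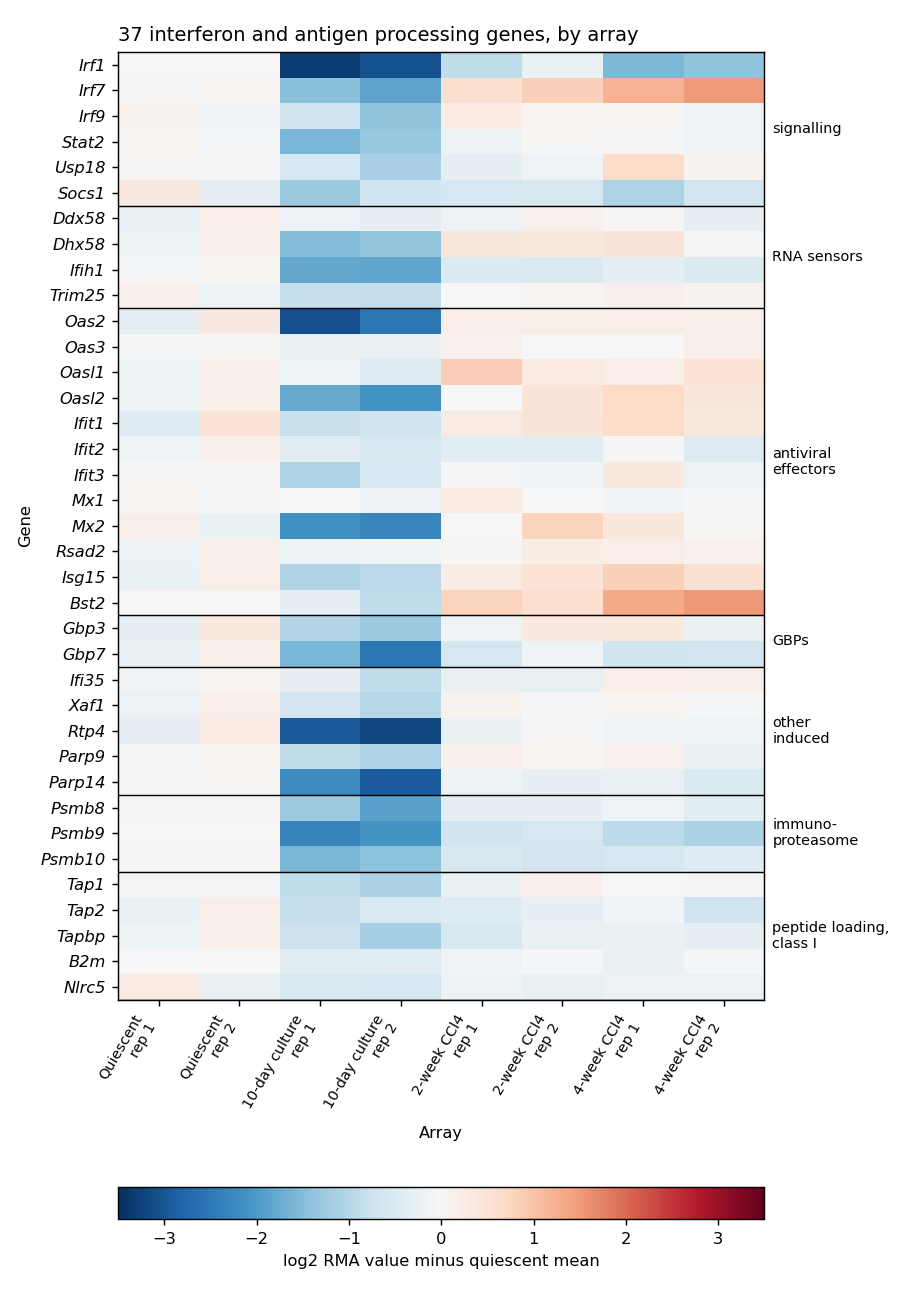
Colour map of 37 genes (rows, grouped by role) on 8 arrays (columns); colour is the log2 RMA value minus that gene's quiescent mean, blue for lower and red for higher. The cultured columns are blue for all genes except where pale (Mx1, Ddx58, Rsad2), and Irf7 and Bst2 are red in the 4-week CCl4 columns.

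The signalling genes fell as a whole: 6 of 6, with a median log2 change of -1.26. Irf1, a transcription factor induced by interferon gamma that drives antigen processing genes, stood at 9.19 and 9.21 on the quiescent arrays, 5.89 and 6.16 after culture, 8.31 and 8.96 at 2 weeks and 7.63 and 7.79 at 4 weeks of CCl4. Culture was lowest, the 4-week arrays lay between culture and quiescent, and no 2 of these groups overlapped. The fall in culture was 3.18 ± 0.21 on the log2 scale, or 9.04-fold (adjusted p = 1.5e-05). Irf7, the factor that amplifies type I interferon production, stood at 7.45 and 7.61 in quiescent cells, 6.06 and 5.68 in culture, 8.08 and 8.36 at 2 weeks and 8.74 and 9.02 at 4 weeks. Its order was culture, quiescent, 2 weeks, 4 weeks, without overlap, and it fell by 1.66 ± 0.19 in culture (adjusted p = 0.000261). Stat2 and Irf9, partners in the complex that binds ISRE sites, fell by 1.47 ± 0.15 (adjusted p = 0.000191) and 1.05 ± 0.23 (adjusted p = 0.0103). Usp18 and Socs1, which damp receptor signalling and are themselves induced by it, fell by 0.88 ± 0.22 (adjusted p = 0.0185) and 1.0 ± 0.26 (adjusted p = 0.0229).

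**Figure D3:**
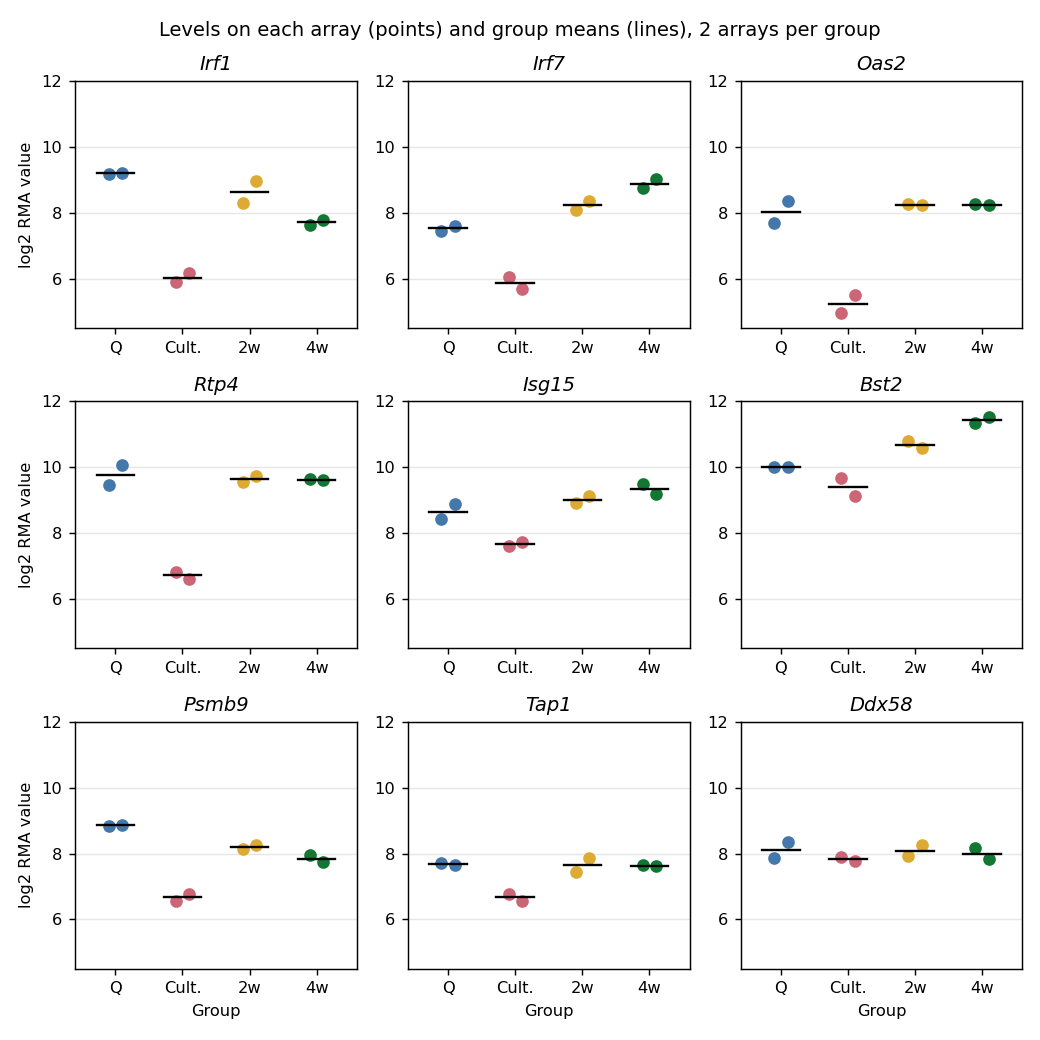
Log2 RMA values of 9 genes on each array (points) with group means (lines), for quiescent (Q), 10-day culture (Cult.), 2-week (2w) and 4-week (4w) CCl4 cells, 2 arrays per group. Culture is lowest for 8 of the 9 genes without overlap with any other group, whereas Ddx58 overlaps throughout, and Bst2 and Irf7 are highest at 4 weeks.

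Of 4 RNA sensors and their partners 3 fell. Ifih1 (MDA5), which detects long double-stranded RNA, stood at 8.84 and 8.96 in quiescent cells, 7.12 and 7.07 in culture, 8.41 and 8.40 at 2 weeks and 8.58 and 8.42 at 4 weeks. The cultured arrays lay far below all the others, and the fall was 1.80 ± 0.13 (adjusted p = 2.5e-05). Dhx58 (LGP2), a regulator of that sensor, fell by 1.43 ± 0.20 (adjusted p = 0.000856) to 4.20 and 4.35, under the background guide. Trim25, the ubiquitin ligase that helps activate RIG-I, fell by 0.83 ± 0.16 (adjusted p = 0.00486). Ddx58, which encodes RIG-I itself, stood at 7.88 and 8.34 in quiescent cells and 7.90 and 7.77 in culture; these overlapped, with a difference of -0.27 ± 0.20 (adjusted p = 0.428).

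Of the 12 antiviral effectors, 5 fell in culture, with a median log2 change of -0.67. Oas2, an oligoadenylate synthetase that triggers RNA decay, stood at 7.70 and 8.35 in quiescent cells, 4.96 and 5.50 in culture, 8.26 and 8.23 at 2 weeks and 8.25 and 8.22 at 4 weeks. The 4 CCl4 arrays lay within the quiescent range, and only culture was apart: the fall was 2.80 ± 0.24, or 6.96-fold (adjusted p = 5.55e-05). Its relative Oasl2 fell by 1.94 ± 0.21 (adjusted p = 0.00024). Mx2, of a family of dynamin-like GTPases, fell by 2.22 ± 0.26 (adjusted p = 0.000362) and the ubiquitin-like modifier Isg15 by 0.98 ± 0.19 (adjusted p = 0.00563). Ifit3, which binds viral RNA with its family and has a near-identical copy in the mouse, fell by 0.85 ± 0.21 (adjusted p = 0.0165). The other 7 did not pass the test, with changes from -0.73 for Ifit1 to -0.11 for Mx1, which was under the background guide in every group. Among the relatives of Oas2 that did not pass the test, Oas3 changed by -0.26 ± 0.14 and Oasl1 by -0.29 ± 0.22 on the log2 scale.

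The guanylate-binding proteins, GTPases that attack the membranes around intracellular microbes, both fell. Gbp7 stood at 7.46 and 7.89 in quiescent cells, 6.09 and 5.14 in culture, 7.09 and 7.52 at 2 weeks and 6.97 and 7.04 at 4 weeks. The cultured arrays were lowest, the 2-week arrays overlapped the quiescent ones, and the fall in culture was 2.07 ± 0.30 (adjusted p = 0.0011). Gbp3 fell by 1.17 ± 0.28 (adjusted p = 0.0163). Among 5 other induced genes, 4 fell. Rtp4, a type I interferon-induced protein named for receptor transport, stood at 9.47 and 10.07 in quiescent cells, 6.83 and 6.62 in culture, 9.55 and 9.73 at 2 weeks and 9.63 and 9.61 at 4 weeks. Here too the CCl4 arrays lay inside the quiescent range, and the fall in culture was 8.23-fold, 3.04 ± 0.20 on the log2 scale (adjusted p = 1.39e-05). Parp14, an ADP-ribosyltransferase, stood at 8.08 and 8.14, then 5.90 and 5.20 in culture, 7.94 and 7.83 at 2 weeks and 7.84 and 7.63 at 4 weeks. It fell by 2.56 ± 0.22 in culture (adjusted p = 5.47e-05), with the CCl4 arrays just below the quiescent ones. Its relative Parp9 fell by 1.0 ± 0.17 (adjusted p = 0.00271) and Xaf1, a partner of cell death inhibitors, by 0.84 ± 0.19 (adjusted p = 0.0102). Ifi35 changed by -0.58 ± 0.19 (adjusted p = 0.0602), while its dimmer probe set passed the test at -0.56 ± 0.14 (adjusted p = 0.0168).

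All 3 immunoproteasome subunits fell in culture while the subunits they replace rose. Of all genes 10.3% fell and 12.9% rose in culture. Psmb9 stood at 8.84 and 8.88 in quiescent cells, 6.56 and 6.78 in culture, 8.15 and 8.26 at 2 weeks and 7.95 and 7.75 at 4 weeks. The 4 groups did not overlap and quiescent cells were highest; the fall in culture was 2.19 ± 0.15, or 4.56-fold (adjusted p = 1.5e-05). Psmb10 stood at 10.41 and 10.51, then 8.85 and 9.02 in culture, 9.89 and 9.81 at 2 weeks and 9.84 and 10.02 at 4 weeks, with both CCl4 groups below quiescent cells and overlapping each other. It fell by 1.52 ± 0.14 in culture (adjusted p = 9.34e-05), and Psmb8 fell by 1.59 ± 0.21 (adjusted p = 0.000642). After CCl4 the median log2 change of the 3 immunoproteasome subunits was -0.61 at 2 weeks and -0.53 at 4 weeks. That of the 3 standard subunits was 0.33 and 0.36. Of the standard subunits 0 rose at 2 weeks and 1 at 4 weeks, where 2.34% and 4.04% of all genes rose. Of the standard subunits, Psmb5, which Psmb8 replaces, stood at 10.10 and 10.20 in quiescent cells and 11.28 and 11.18 in culture and rose by 1.07 ± 0.13 (adjusted p = 0.000494). Psmb6, replaced by Psmb9, rose by 0.57 ± 0.14 (adjusted p = 0.0166), a call lost without quiescent replicate 1 or either cultured array (adjusted p up to 0.0868), and Psmb7, replaced by Psmb10, rose by 0.85 ± 0.14 (adjusted p = 0.00217). Among 10 other 20S proteasome subunits 4 rose and 0 fell (0 also at an unadjusted p under 0.05), led by Psma1 at 1.06, and 2 rose without quiescent replicate 2, culture replicate 1 or culture replicate 2.

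**Figure D4:**
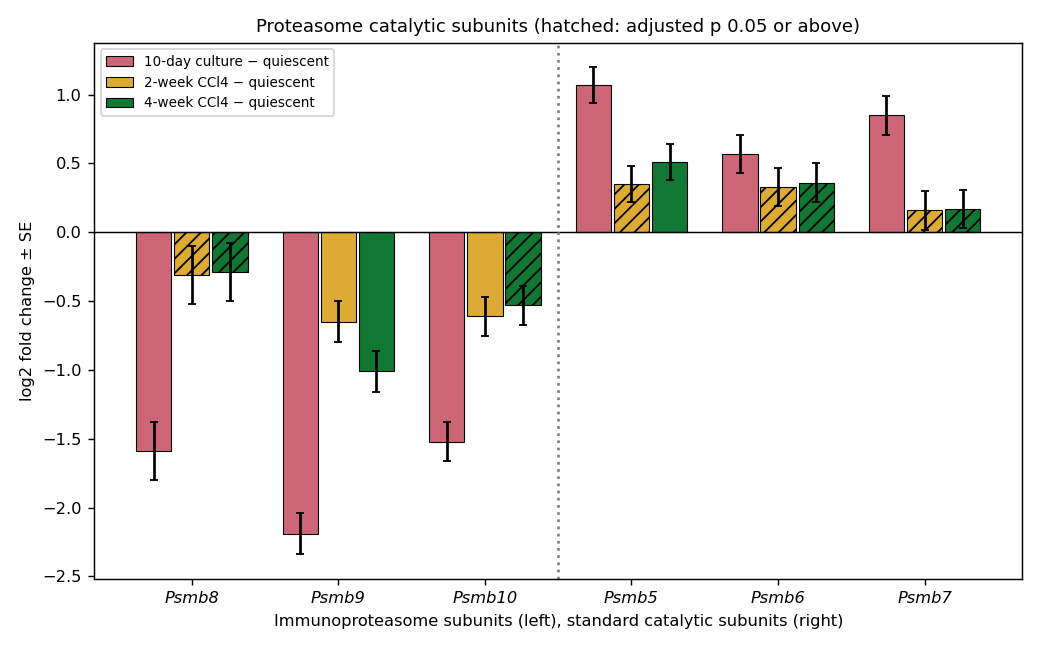
Log2 fold change ± SE against quiescent cells (2 arrays per group) of 3 immunoproteasome and 3 standard catalytic subunits, for 10-day culture, 2-week and 4-week CCl4; plain bars passed an adjusted p of 0.05 and hatched bars did not. In culture the immunoproteasome bars reach down to -2.19 and the standard bars up to 1.07.

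Of 5 peptide loading genes 2 fell, with a median log2 change of -0.66. For this and the lists below, 10.3% of all genes fell in culture and 12.9% rose. Tap1, a subunit of the peptide pump, stood at 7.72 and 7.65 in quiescent cells, 6.78 and 6.57 in culture, 7.44 and 7.87 at 2 weeks and 7.66 and 7.61 at 4 weeks. Culture alone was apart, with a fall of 1.01 ± 0.17 (adjusted p = 0.00269). Tapbp (tapasin), which bridges the pump to class I molecules, fell by 0.94 ± 0.20 (adjusted p = 0.00923), but its dimmer probe set stood at 0.03 ± 0.27 (adjusted p = 0.969), so its probe sets disagreed. B2m, the light chain of class I molecules, stood at 12.38 and 12.35 in quiescent cells and 11.95 and 11.96 in culture, a difference of -0.41 ± 0.13 that did not pass the test (adjusted p = 0.0553) although the arrays were apart. Tap2 changed by -0.66 ± 0.23 (adjusted p = 0.0771) and Nlrc5, the transactivator of class I genes, by -0.57 ± 0.18 (adjusted p = 0.0546). Of 9 class I heavy chains outside the members, which share long stretches of sequence so that their probe sets may cross-hybridise, 5 fell and 0 rose (0 also at an unadjusted p under 0.05), with a median of -1.08; without quiescent replicate 1, 4 fell and 1 rose. H2-T23 (Qa-1) fell by 3.11 ± 0.15 (adjusted p = 2.37e-06) and the classical chain H2-K1 by 1.08 ± 0.16 (adjusted p = 0.00119). Of 10 class I folding and trimming genes 3 fell and 2 rose: Erap1, which trims peptides, fell by 1.88 ± 0.16 (adjusted p = 6.24e-05), whereas Lap3, an aminopeptidase, rose by 1.78 ± 0.19 (adjusted p = 0.000188). Without quiescent replicate 1 or either cultured array 1 of the 10 rose.

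Upstream of these genes, none of the ligands passed the test. Of 19 interferon ligand genes 0 rose and 0 fell in culture by limma (0 in either direction also at an unadjusted p under 0.05), with a median log2 change of -0.06, and Ifnb1 stood between 2.93 and 3.17 on all 8 arrays, under the background guide. Ifng, the gene of interferon gamma, had group means from 4.08 to 4.32, also under it, while some ligand probe sets were brighter, up to a group mean of 8.14 for Ifnl2. The receptor chains are given in pairs, and the difference between the chains of a pair was not tested. For the type I receptor, Ifnar1 stood at 8.54 and 8.53 in quiescent cells and 8.70 and 8.58 in culture, a difference of 0.10 ± 0.14 (adjusted p = 0.698). Ifnar2 stood at 11.27 and 11.44 in quiescent cells and 10.13 and 10.11 in culture, without overlap, and fell by 1.24 ± 0.13 (adjusted p = 0.000222). The interferon gamma receptor chains Ifngr1 (-0.39 ± 0.13, adjusted p = 0.0637) and Ifngr2 (0.28 ± 0.16, adjusted p = 0.287) did not pass the test, nor did Ifnlr1 (0.02 ± 0.14), which was under the background guide; its partner Il10rb fell by 0.73 ± 0.15 (adjusted p = 0.00661). A list of receptors, kinases and STAT genes, 10 in all, held 4 that fell and 0 that rose (0 also at an unadjusted p under 0.05). Of all genes 10.3% fell and 12.9% rose in culture. The others that fell were the kinase Jak1, by 1.15 ± 0.18 (adjusted p = 0.00169), and Stat3, by 0.95 ± 0.21 (adjusted p = 0.00992); Il10rb lost its call without culture replicate 1 and Stat3 without culture replicate 2.

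Interferon-induced genes outside the members went the same way in culture, with 31 of 47 falling, 2 rising and a median of -0.86. Of all genes 10.3% fell and 12.9% rose, and this list too was chosen with earlier results of these data known. Iigp1, an immunity-related GTPase, fell by 5.71 ± 0.35 (adjusted p = 8.79e-06), from 10.69 and 10.02 in quiescent cells to 4.10 and 5.19 in culture, with 9.39 to 9.87 on the 4 CCl4 arrays; culture replicate 1 was under the background guide, so the size of this fall is uncertain. Uba7, the enzyme that activates Isg15 for conjugation, fell by 2.85 ± 0.18 (adjusted p = 9.34e-06), and Lgals3bp, a secreted glycoprotein, fell by 2.41 ± 0.15 (adjusted p = 9.34e-06). The exceptions that rose were Ifi30, a lysosomal thiol reductase, by 1.67 ± 0.17 (adjusted p = 0.00017), and Herc3 by 1.03 ± 0.19 (adjusted p = 0.00394). Among 5 other interferon regulatory factors 3 fell, led by Irf8, a myeloid factor, at -2.66 ± 0.41 (adjusted p = 0.0015); without culture replicate 1 only 1 fell. Of 17 nucleic acid sensing and adaptor genes 4 fell and 3 rose. Zbp1, a sensor of Z-form nucleic acid, fell by 1.49 ± 0.15 (adjusted p = 0.000156) and the adaptor Myd88 by 1.44, while Eif2ak2, the kinase PKR, rose by 0.86 ± 0.15 (adjusted p = 0.00315); 1 rose without culture replicate 1. Of 15 negative regulators 4 fell and 2 rose. Socs3, a feedback inhibitor of cytokine receptors, went from 11.48 and 11.12 to 6.17 and 6.32, a fall of 5.05 ± 0.17 (adjusted p = 3.31e-07), while 2 of the 15 fell without quiescent replicate 1 or either cultured array. A list of 13 NF-kB and TNF response genes also held 10 that fell and 0 that rose (0 also at an unadjusted p under 0.05), with a median of -1.17.

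After CCl4 few members passed the test against quiescent cells, and few of all genes did. At 2 weeks 0 members rose and 2 fell, where 2.34% of all genes rose and 2.43% fell (at an unadjusted limma p under 0.05, 3 members were higher and 4 lower), and the median log2 change was -0.03. The members that fell were Psmb9, by 0.65 ± 0.15 (adjusted p = 0.0419), and Psmb10, by 0.61 ± 0.14 (adjusted p = 0.0481), and neither call held when any single array was left out, with adjusted p from 0.0602 to 0.224 and from 0.0715 to 0.171. Without quiescent replicate 2, Ifit1 passed the test at 0.83 (adjusted p = 0.0333); its quiescent arrays stood apart, at 7.10 and 8.03. At 4 weeks 2 members rose and 2 fell, where 4.04% of all genes rose and 4.67% fell, again with a median of -0.03. Without quiescent replicate 2, 4 rose, the added genes being Isg15 at 0.92 (adjusted p = 0.0234) and Ifit1 at 0.96 (adjusted p = 0.014).

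The genes called at 4 weeks kept their calls under every alternative tried. Irf7 rose by 1.36 ± 0.19, or 2.56-fold (adjusted p = 0.00305). Bst2 (tetherin), which holds budding virus at the cell surface, stood at 10.00 and 10.02 in quiescent cells, 9.68 and 9.13 in culture, 10.79 and 10.59 at 2 weeks and 11.34 and 11.54 at 4 weeks. Its 4 groups did not overlap, and it rose by 1.43 ± 0.19 at 4 weeks, or 2.7-fold (adjusted p = 0.00293). In culture its change of -0.60 ± 0.19 did not pass the test (adjusted p = 0.0545). Irf1 and Psmb9 went the other way and fell by 1.49 ± 0.21 (adjusted p = 0.00376) and 1.01 ± 0.15 (adjusted p = 0.00403) at 4 weeks. The quiescent arrays gave 8.42 and 8.88 for Isg15, the 2-week arrays 8.91 and 9.12 and the 4-week arrays 9.49 and 9.19. Both CCl4 groups lay above the quiescent arrays, but the difference of 0.69 ± 0.19 at 4 weeks did not pass the test (adjusted p = 0.063). The largest differences among peptide loading members after CCl4 were those of Tap2 at 4 weeks, at -0.40 ± 0.23 (adjusted p = 0.414), and Tapbp at 2 weeks, at -0.40 ± 0.20 (adjusted p = 0.373).

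Outside the members, Oas1g and Zbp1 also fell in culture and rose at 4 weeks. The 47 other interferon-induced genes had a median log2 change of -0.14 at 4 weeks, with 28 of them below 0. Of 17 nucleic acid sensing and adaptor genes 2 rose and 1 fell, with a median of 0.11. Of all genes 4.04% rose and 4.67% fell at 4 weeks. Already at 2 weeks 3 of the 17 sensing and adaptor genes rose and 1 fell. Of the 47 other interferon-induced genes 1 rose and 1 fell at 2 weeks, where 2.34% of all genes rose and 2.43% fell. Oas1g, one of a tandem family of near-identical genes, stood at 6.83 and 7.30 in quiescent cells, 5.09 and 5.20 in culture, 8.25 and 8.05 at 2 weeks and 8.51 and 8.43 at 4 weeks. The groups did not overlap and stood in the order seen for Irf7, and it rose by 1.41 ± 0.18 at 4 weeks (adjusted p = 0.00202). Zbp1 rose by 1.46 ± 0.15 at 4 weeks (adjusted p = 0.000823), from 7.19 and 6.86 to 8.46 and 8.50, after 5.53 and 5.54 in culture. Both held at 4 weeks when any single array was left out. In all, 3 of the 47 other interferon-induced genes rose and 1 fell at 4 weeks, and leaving out quiescent replicate 1 or either 4-week array left 1 that rose and 0 that fell. Of 19 ligand genes 0 rose and 0 fell at either time (at an unadjusted p under 0.05, 1 was higher at each).

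**Figure D5:**
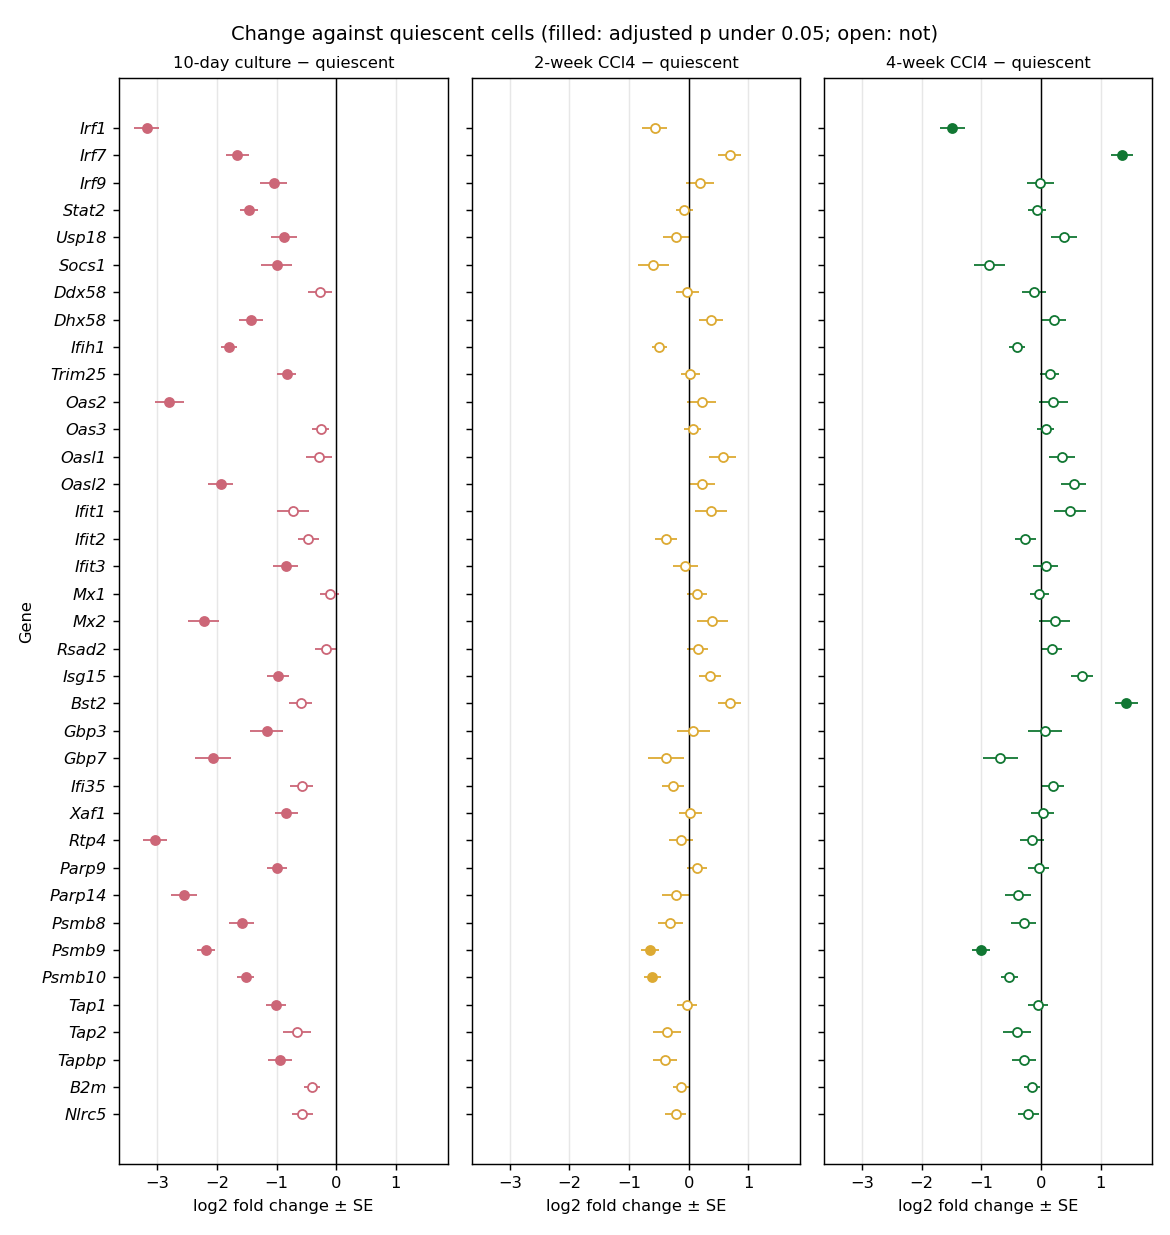
Log2 fold change ± SE of 37 genes against quiescent cells (2 arrays per group), in 10-day culture (left), 2-week CCl4 (middle) and 4-week CCl4 (right); filled points passed an adjusted p of 0.05. All points lie left of 0 in culture and 25 are filled, whereas after CCl4 the points lie on both sides, with 2 filled at 2 weeks and 4 at 4 weeks.

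Between 2 and 4 weeks of CCl4 no member passed the test: 0 rose and 0 fell by limma (at an unadjusted p under 0.05, 4 were higher and 2 lower at 4 weeks), where 0.0271% of all genes rose and 0.0586% fell. The median log2 difference was -0.00. The largest were Irf1 at -0.92 (adjusted p = 0.203), Bst2 at 0.75 (adjusted p = 0.266) and Irf7 at 0.66 (adjusted p = 0.319), and the arrays of both times were apart for all of these.

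Culture was then set directly against both CCl4 times together, 2 arrays against 4. Of 37 members 28 were lower in culture and 0 higher (0 also at an unadjusted p under 0.05), where 8.72% of all genes were lower and 12.6% higher. The median log2 difference was -1.05, against 0.00 over all genes, and for 32 members both cultured arrays lay below all 4 CCl4 arrays, a pattern seen in 18.2% of all genes. This comparison shares the cultured arrays with that against quiescent cells. By role, 5 of 6 signalling genes were lower, 3 of 4 RNA sensors, 8 of 12 antiviral effectors, both guanylate-binding proteins, 5 of 5 other induced genes, 3 of 3 immunoproteasome subunits and 2 of 5 peptide loading genes. Beyond the members that fell against quiescent cells, Oasl1, Ifit1, Bst2 and Ifi35 were called here and Socs1 was not (adjusted p = 0.491). The CCl4 arrays of Socs1, at 5.82 to 6.34, overlapped the cultured ones at 5.60 and 6.19. The differences were widest for Oas2 at -3.01 ± 0.21 (adjusted p = 1.68e-05), Rtp4 at -2.90 ± 0.17 (adjusted p = 7.73e-06) and Irf7 at -2.68 ± 0.16 (adjusted p = 7.73e-06). Calls of Usp18, Oasl1, Ifit1, Ifit3, Gbp3, Ifi35, Xaf1 and Tapbp were lost when some single array was left out, and 20 of the 28 were not.

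Markers of other liver cells moved with these groups. Of all genes 10.3% fell in culture, 2.43% at 2 weeks and 4.67% at 4 weeks, and 12.9%, 2.34% and 4.04% rose. At 2 weeks 8 of 17 hepatocyte and 11 of 18 sinusoidal endothelial markers fell, and 0 of either list rose. Of 21 Kupffer cell and macrophage markers 3 rose and 2 fell at that time. Levels of a list were summed on the linear scale and are given as log2. In culture 16 of 17 hepatocyte markers fell, and their sum was 15.13 and 14.26 on the quiescent arrays, 9.20 and 9.30 in culture, 13.08 and 13.71 at 2 weeks and 12.19 and 11.87 at 4 weeks; at 4 weeks 16 of 17 fell. Alb was under the background guide on both cultured arrays. Of 18 sinusoidal endothelial markers 16 fell in culture and 14 at 4 weeks (9 without either 4-week array), and their sum went from 14.24 and 13.56 to 11.43 and 11.34 in culture, 12.39 and 12.62 at 2 weeks and 11.97 and 12.25 at 4 weeks, with Clec4g, Kdr, Tek and Vwf under the guide on both cultured arrays. Of 21 Kupffer cell and macrophage markers 16 fell and 1 rose in culture, and 12 fell and 0 rose at 4 weeks (0 also at an unadjusted p under 0.05); their sum was 12.47 and 12.80 in quiescent cells, 12.19 and 12.30 in culture, 12.86 and 13.13 at 2 weeks and 11.77 and 11.91 at 4 weeks, with Cd163 under the guide on both arrays in culture and at 4 weeks. The members' own sum was 13.90 and 14.01 in quiescent cells, 13.06 and 12.97 in culture, 13.84 and 13.92 at 2 weeks and 13.99 and 14.01 at 4 weeks. A sum is carried by its brightest genes; the median level of the 21 macrophage markers was 7.61 and 7.81 in quiescent cells, 6.0 and 6.42 in culture, 7.5 and 7.82 at 2 weeks and 6.32 and 6.50 at 4 weeks. The part of other cells in the fall of the members in culture was not tested.

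Lists of rarer cells are given for the same reason. The shares of all genes beside them are 10.3% that fell and 12.9% that rose in culture. At 2 weeks 2.34% of all genes rose and at 4 weeks 4.04%. At 2 weeks 1 of 12 monocyte and neutrophil markers and 1 of 13 dendritic cell markers rose, and 0 of either list fell. Of 14 lymphocyte markers, 10 to 12 were under the guide on both arrays of each group. Of 12 monocyte and neutrophil markers 4 fell in culture, with sums of 11.99 and 10.29 in quiescent cells, 8.41 and 8.26 in culture, 10.56 and 11.68 at 2 weeks and 9.98 and 10.37 at 4 weeks. The list of 13 dendritic cell markers holds Bst2 itself, which plasmacytoid dendritic cells express strongly, and Irf8. The part of such cells in the rise of Bst2 was not tested, and in culture 4 genes of the list fell and 1 rose. At 4 weeks 2 of its genes rose, Bst2 and Cd209a (0.62 ± 0.13, adjusted p = 0.0236, lost without quiescent replicate 1 or either 4-week array), and Siglech, the defining plasmacytoid marker, stood at 5.28 and 5.04 in quiescent cells and 5.19 and 5.39 at 4 weeks (0.13 ± 0.22, adjusted p = 0.837), while Ccr9, Flt3, Xcr1 and Pacsin1 were under the guide on both arrays of every group.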

How the data were processed

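RNA of 8 samples was amplified and hybridised, biotin-labelled, to Affymetrix arrays, per the labels' protocols. The authors deposited log2 expression values, and the submitters' processing notes name RMA and Affymetrix Expression Console; versions and the genome build of the array are not given in the sources used here. Since RMA makes the distributions of all arrays nearly alike, it would hide a shift common to most genes. The median of an array's 41345 probe sets lay between 4.63 and 4.72, and no further scaling was applied.

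The platform annotation gave 1 symbol to 23521 probe sets, several to 1814, and 16010 were unnamed here. For 193 of the single-symbol probe sets the gene ID had no row in a RefSeq table of assembly GRCm38.p6, and 0 symbols changed. Where a gene had more than 1 probe set (1082 genes), that with the highest mean stood for it, giving 22180 genes. Groups were fitted together with limma 3.58.1 in R 4.3.3 (lmFit and eBayes, 4 residual and 4.75 prior degrees of freedom), with two-sided tests and Benjamini-Hochberg adjustment over all genes in each of 5 comparisons. The script was tested on simulated data. With 2 arrays per group, their number limits the precision.

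The members and the lists of other genes were chosen with earlier results of these data known. All members could be named; values on every array were given for the largest changes in each role and for members called in both culture and CCl4, and up to 4 genes of each other list were named by smallest p, with up to 2 against its direction. Ifng, Ifnl2, Siglech and the values by array of further genes were added after they were seen. H2-Ke6 and Isg20l2 were taken out of the lists after values were seen, since the first is not a class I chain and the second not a negative regulator. Alternatives were trend and robust options, a fit of only the groups compared, the replicate number as a block, other treatments of probe sets, a minimum level of 5, other scalings, a 2-fold minimum and leaving out each array, where a lone array is assumed to vary like the other groups. Same-numbered arrays did not deviate together (correlations of deviations from -0.042 to 0.0737), so the numbers were not taken as pairs.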

Additional observations from a re-analysis of the deposited data

Results flagged for a closer look

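Genes were flagged where culture differed from CCl4 by the test and a called CCl4 change had the opposite sign to culture. The p-values below were thus part of the choice. Irf7 and Bst2 were the genes flagged, and they lay on opposite sides of quiescent cells in culture and after CCl4. On both cultured arrays each gene lay below both quiescent arrays, and on all 4 CCl4 arrays each lay above them. The difference of culture from the mean of both CCl4 times was -2.68 for Irf7 (adjusted p = 7.73e-06, limma with Benjamini-Hochberg adjustment) and -1.66 for Bst2 (adjusted p = 0.000167). For Bst2 the change in culture alone did not pass the test. At 2 weeks of CCl4 neither gene's change of 0.69 passed it (limma adjusted p = 0.0772 for Irf7 and 0.0912 for Bst2).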

How the results depend on the processing

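Of 28 members lower in culture than after CCl4, 17 kept the call under every alternative, as did 15 of 25 against quiescent cells and 4 of 4 at 4 weeks. The count that fell in culture ran from 20 to 25 when single arrays were left out and was 25 with the replicate number as a block; against CCl4 these were 22 to 28, and 26 under the replicate block. At 2 weeks of CCl4 the count of members that fell, 2, was 0 under the replicate block, 0 with only the groups compared, 0 with all probe sets in the fit, 0 with a 2-fold minimum and 1 after median centring, and ran from 0 to 0 when single arrays were left out. The count that rose at 2 weeks ran from 0 to 1, and that at 4 weeks from 2 to 4, both highest without quiescent replicate 2; the cause was not tested. The difference of Ifit1 at 2 weeks, 0.37 and not called, was -0.09 without quiescent replicate 1 (adjusted p = 0.896) and 0.83 without quiescent replicate 2. With 2 arrays per group the spread rests on few degrees of freedom. A gene that missed the threshold is thus not shown to be equal. In culture Bst2, B2m and Ifi35 passed the test under some alternatives. Whether Ifit1, Tap2 and Nlrc5 passed it there depended on which single array was left out. Signal near the background guide limits what Mx1, Nlrc5 and Dhx58 can show.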
